A study of Homo sapiens with 7 samples.

Results

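The Notch genes described here are 3 receptors (NOTCH1, NOTCH2 and NOTCH3), 4 ligands (DLL1, DLL3, JAG1 and JAG2), the glycosyltransferase gene LFNG and 2 target genes (HES1 and HEY1). They were chosen by name, and these 10 of the 22670 listed genes were each present once in every table. The libraries came from SEES-3 cells, an established human embryonic stem cell (hESC) line, kept without feeder cells. All cells carried a constantly expressed reverse Tet-transactivator, which switches on a Tet-responsive gene when doxycycline (Dox) is added, and a piggyBac insert with that Tet-responsive element, a βgeo reporter and puromycin resistance. In the JMJD3c-hESCs the insert encoded JMJD3c, the HA-tagged catalytic domain of the H3K27 demethylase JMJD3 with a nuclear localization signal, and in the JMJD3c mut-hESCs it encoded the same protein with a point mutation that removes the catalytic activity. Libraries of the JMJD3c-hESCs cover Day 0, before Dox, and each of Days 1 to 4 in 1 µg/ml Dox, and those of the JMJD3c mut-hESCs cover untreated cells and cells after 4 days in Dox. Stable clones were made by puromycin selection, and how many clones stand behind each line is not given in the sources used here, so that clone and enzyme activity cannot be told apart between the lines.

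Notch receptors are single-pass membrane proteins that are activated by DLL and JAG ligands on a neighbouring cell. Ligand binding leads to cleavage of the receptor, and its intracellular domain enters the nucleus, where it joins the DNA-binding protein RBPJ and turns on repressor genes of the HES and HEY families. In the embryo the pathway acts in somite segmentation, in which DLL1, DLL3 and LFNG take part, and in the choice between neural, vascular and endodermal fates. The comparison of the lines asks which of these genes moved when JMJD3c was induced, and whether they also moved with the inactive enzyme.

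Each of the 7 conditions had 1 library, so differences could not be checked between replicates and no test was run. The values are FPKM, fragments per kilobase of transcript scaled to the mapped reads of the library, as estimated by Cufflinks with a lower and an upper bound of a 95% interval. The interval describes the estimate within 1 library and not the variation between cultures. The depth, inferred from the spacing of the lowest FPKM values, was between 1770000 reads (Day 0, the shallowest library) and 3660000 reads (untreated mutant line). For a transcript of the median length, 3 reads correspond to between 0.262 and 0.539 FPKM in these libraries. KDM6B, the gene of JMJD3, measured 3.45 FPKM before Dox and between 158 and 282 FPKM on Days 1 to 4, and 2.4 and 454 FPKM in the mutant line without and with Dox. Reads from the transgene count towards these values. They match the Dox labels of the 7 libraries and do not tell the active from the mutant enzyme. All values of the Notch genes lay within their own intervals, and all 10 genes were above 0 in all 7 libraries.

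The cutoffs were those of the study. A gene rose when its FPKM was more than 2 times that of the reference with more than 4 FPKM in the treated library, and fell when it was less than 0.5 of the reference with more than 4 FPKM in the reference library. Of the 10 Notch genes, 0 rose and 0 fell at Day 4 against Day 0. Over the 10246 genes above 4 FPKM in either library, 5.88% rose and 7.56% fell. Of the Notch genes, 7 were above 4 FPKM in either library. On the log2(FPKM + 1) scale 2 of the 10 were higher and 8 lower, with a median difference of -0.30. For the 7 above 4 FPKM the median was -0.22, beside -0.06 over all genes above 4 FPKM. The untreated mutant line against Day 0 likewise had 2 higher and 8 lower, with a median of -0.26 (-0.27 for the 7 above 4 FPKM). Against the untreated mutant line, Day 4 had 5 higher and 5 lower. The median there was -0.12 over the 10 and 0.16 over the 7 above 4 FPKM. The intervals of the 2 libraries lay apart for 2 Notch genes, NOTCH2 and JAG2, both lower at Day 4. Over the genes listed above 0 in both libraries, 3.86% were higher with intervals apart and 5.36% were lower. In a bulk sample, fewer cells that express a gene and less RNA per cell cannot be told apart.

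**Figure D1:**
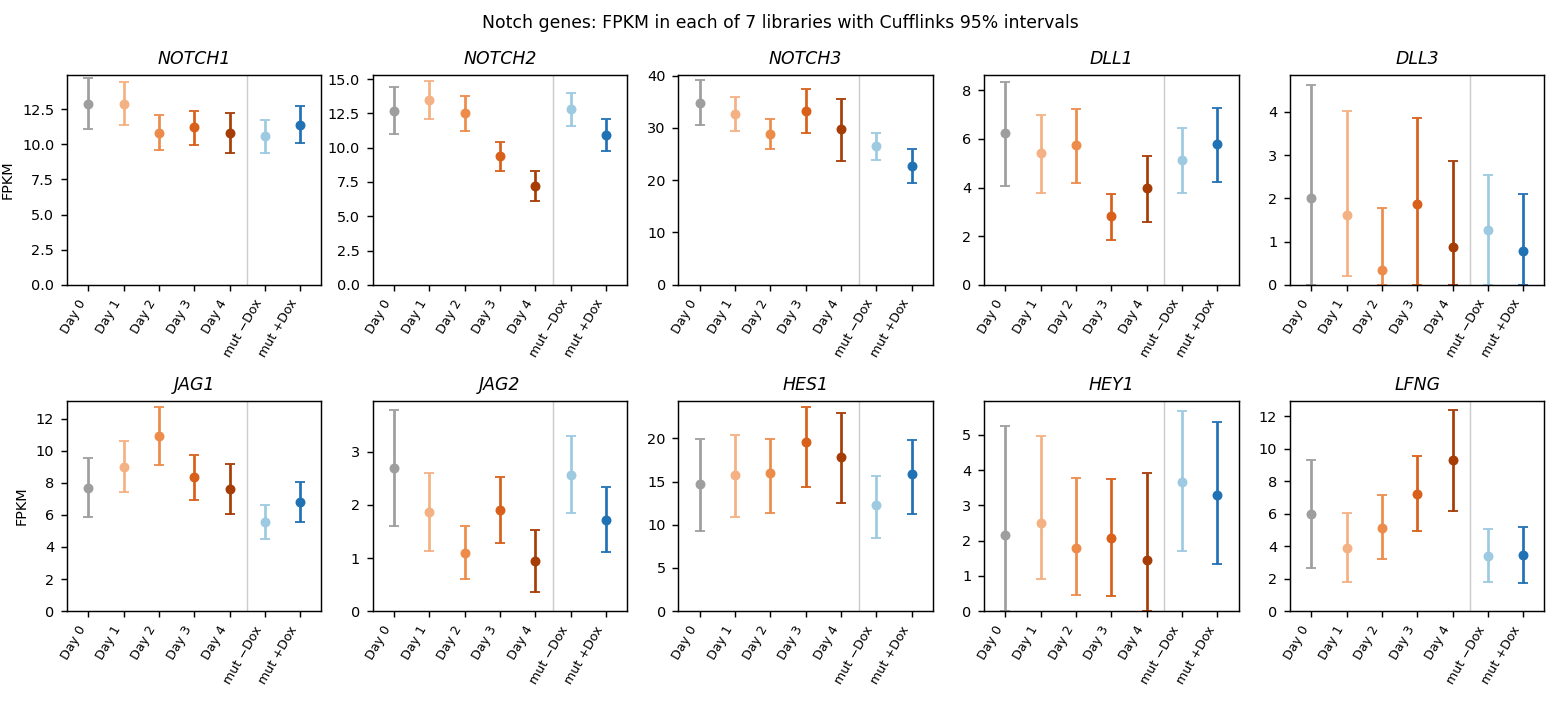
FPKM (vertical axis, starting at 0, with its own range for each gene) of the 10 Notch genes in each of the 7 libraries (horizontal axis). Points are the deposited values and bars the Cufflinks 95% intervals, and the grey line separates the JMJD3c-hESCs (left) from the mutant line (right). NOTCH2 was lowest at Day 4, at 7.2 FPKM, and LFNG reached 9.29 FPKM there, above the 3.4 and 3.44 FPKM of the mutant line.

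NOTCH3 was the most abundant Notch gene in all 7 libraries. The receptor genes lie at chr19:15270444-15311792 (NOTCH3, ENSG00000074181), chr9:139388896-139440314 (NOTCH1, ENSG00000148400) and chr1:120454176-120612240 (NOTCH2, ENSG00000134250) in hg19. FPKM is a level per length, so that levels can be compared between genes. NOTCH3 made up between 50.4% and 62.3% of the summed FPKM of the 3 receptors.

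NOTCH3 measured 34.8, 32.6, 28.8, 33.3 and 29.7 FPKM on Days 0 to 4. The mutant line had 26.5 FPKM without Dox and 22.7 FPKM with Dox. The level at Day 4 was 0.854 of that at Day 0, a log2 difference of -0.22 ± 0.33, where ± is the half-width combined from the 95% intervals of both libraries. Intervals overlapped within each line. They lay apart between the untreated libraries of the 2 lines, where the mutant line had 0.761 of the Day 0 level. NOTCH3 is rich in G and C (63.1% of its longest transcript). Among genes of like GC content the median log2 difference between these 2 untreated libraries was -0.39, and the difference of NOTCH3 after subtracting it was 0.01.

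NOTCH1, the receptor best known from blood and skin, measured 12.9, 12.9, 10.8, 11.2 and 10.8 FPKM on Days 0 to 4, and 10.6 and 11.4 FPKM in the mutant line without and with Dox. All 7 values lay within a range of 1.23 times, the narrowest of the 10 genes. The difference at Day 4 against Day 0 was -0.24 ± 0.26 in log2, and at Day 4 against the untreated mutant line 0.03 ± 0.22.

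NOTCH2 was the receptor with the largest difference over the time course. Its level was 12.7, 13.5, 12.5, 9.38 and 7.2 FPKM on Days 0 to 4. Mutant cells had 12.8 FPKM without Dox and 10.9 FPKM with Dox. Days 0 to 2 and the untreated mutant library were alike, and Day 4 was the lowest of all 7.

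The level of NOTCH2 at Day 4 was 0.568 of that at Day 0, a log2 difference of -0.74 ± 0.26 with intervals apart, which did not pass the cutoff of 0.5. The step from Day 2 to Day 3 (0.75 times) and that from Day 3 to Day 4 (0.768 times) each had intervals apart. Day 4 was also below both libraries of the mutant line with intervals apart, at 0.563 of the untreated and 0.658 of the Dox-treated level. Within the mutant line the level with Dox was 0.855 of that without, with overlapping intervals. NOTCH2 made up 21.0% of the summed receptor FPKM before Dox and 15.1% after 4 days, and 25.7% and 24.3% in the mutant line without and with Dox. NOTCH2NL, a partial copy of NOTCH2 that can share reads with it, measured 5.09 FPKM on Day 0 and 3.71 FPKM on Day 4, a ratio of 0.729 with overlapping intervals, so that the split of reads between the 2 genes is uncertain.

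JAG1 and DLL1 were the most abundant ligand genes, and JAG1 made up between 38.3% and 60.3% of the summed FPKM of the 4 ligands. JAG1 (ENSG00000101384, chr20:10618332-10654694) measured 7.67, 9.01, 10.9, 8.34 and 7.59 FPKM on Days 0 to 4, and 5.56 and 6.79 FPKM in the mutant line without and with Dox. The highest value was at Day 2, 1.42 times Day 0 with overlapping intervals, and Day 4 was back at 0.989 of Day 0.

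DLL1 (ENSG00000198719, chr6:170591294-170599561), the ligand of the presomitic mesoderm and of neural precursors, was the only Notch gene past the cutoffs on the way to Day 4. Levels of 6.24, 5.43, 5.74, 2.84 and 4.0 FPKM were found on Days 0 to 4. The untreated and Dox-treated mutant cells had 5.14 and 5.77 FPKM. At Day 3 it fell to 0.454 of Day 0 (log2 difference -0.92 ± 0.58) and to 0.494 of Day 2, both with intervals apart. At Day 4 the ratio to Day 0 was 0.642 and that to Day 3 was 1.41, both with overlapping intervals. Day 4 did not pass the cutoffs against Day 0, and by the intervals it was not distinguishable from Day 0 or from Day 3.

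JAG2 (ENSG00000184916, chr14:105607318-105635161) was below 4 FPKM in all libraries and so could not pass the cutoffs. The values were 2.69, 1.86, 1.1, 1.91 and 0.947 FPKM on Days 0 to 4, and 2.56 and 1.72 FPKM in the mutant line without and with Dox. The lowest level, at Day 4, was 0.352 of Day 0 (log2 difference -0.92 ± 0.63) and 0.369 of the untreated mutant line, in both cases with intervals apart. It was 0.552 of the Dox-treated mutant line with overlapping intervals. About 13 reads stand behind the value at Day 4 and about 27 behind that at Day 0.

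DLL3 (ENSG00000090932, chr19:39989535-39999121), a divergent ligand that acts within the cell and holds the pathway back, was the least abundant of the 10. Its FPKM was 2.01, 1.62, 0.335, 1.87 and 0.877 on Days 0 to 4, and 1.26 and 0.792 in the mutant line without and with Dox. These values rest on between about 2.3 and 13.7 reads, and the intervals of all comparisons overlapped. A difference of the size between Day 2 and Day 3 (5.58 times) was not distinguishable at this depth.

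In GENCODE, an exon of FAM120B overlaps DLL1 on the other strand, and long non-coding RNA genes overlap JAG1 and JAG2. Whether the authors' mapping and counting used the strand is not given in the sources used here.

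LFNG (ENSG00000106003, chr7:2552163-2568811) encodes lunatic fringe, which adds a sugar to Notch receptors in the Golgi and so shifts their response between DLL and JAG ligands. It had the widest range of the 10 genes on the log2(FPKM + 1) scale, 1.23. Its level was 5.96 FPKM on Day 0, and 3.9, 5.14, 7.23 and 9.29 FPKM on the 4 days that followed. Mutant cells had 3.4 FPKM without Dox and 3.44 FPKM with Dox. The level was higher at each day from Day 1 to Day 4, with ratios of 1.32, 1.41 and 1.29 between neighbouring days, and the intervals of neighbouring days overlapped.

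The result for LFNG depended on the reference. Against Day 0, Day 4 was 1.56 times higher (log2 difference 0.56 ± 0.87) with overlapping intervals, and LFNG did not pass the cutoffs. Against the untreated mutant line it rose 2.74-fold (log2 difference 1.23 ± 0.72), and against the Dox-treated mutant line 2.7-fold (1.21 ± 0.74), both with intervals apart. The ratio with and without Dox in the mutant line was 1.01. The untreated libraries of the 2 lines differed too: LFNG in the mutant line was at 0.57 of Day 0, with overlapping intervals. LFNG is rich in G and C (63.1%). Genes of like GC content were higher at Day 4 than in the untreated mutant line by a median of 0.22 in log2, and the ratio of LFNG after this was subtracted was 2.34, still past the cutoff.

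LFNG was the only Notch gene past the cutoffs in these 2 comparisons, in each of which 1 of 10 rose and 0 fell. Over all genes, 7.04% rose and 3.9% fell against the untreated mutant line, and 6.56% rose and 3.0% fell against the Dox-treated one. Intervals lay apart for LFNG (higher) and for NOTCH2 and JAG2 (lower) against the untreated mutant line, beside 6.49% of genes higher and 7.4% lower. Against the Dox-treated mutant line they lay apart for LFNG (higher) and NOTCH2 (lower), beside 5.68% and 6.44%. All comparisons with Day 4 share that library.

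HES1 (ENSG00000114315, chr3:193853934-193856521), the repressor that is the best known direct target of Notch, was the second most abundant of the 10 genes in 6 libraries and the third in the untreated mutant line. On Days 0 to 4 it measured 14.7, 15.8, 16.0, 19.6 and 17.9 FPKM. The mutant line had 12.3 FPKM without Dox and 15.9 FPKM with Dox. The ratio of Day 4 to Day 0 was 1.22 (log2 difference 0.27 ± 0.66), and that of Dox-treated to untreated mutant cells was 1.29 (0.34 ± 0.56). The intervals overlapped in all comparisons.

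HEY1 (ENSG00000164683), a related repressor downstream of Notch in vessels and heart, measured 2.15, 2.51, 1.78, 2.07 and 1.46 FPKM on Days 0 to 4 and 3.65 and 3.28 FPKM in the mutant line without and with Dox. The highest level was in the untreated mutant line and the lowest at Day 4, a ratio of 0.401 with overlapping intervals. HEY1 was below 4 FPKM in all libraries, as were DLL3 and JAG2.

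At Day 0 the order of the 10 genes by level was NOTCH3, HES1, NOTCH1, NOTCH2, JAG1, DLL1, LFNG, JAG2, HEY1 and DLL3. Among neighbours in this order, intervals lay apart only between NOTCH3 and HES1 and between NOTCH2 and JAG1. At Day 4 the order was NOTCH3, HES1, NOTCH1, LFNG, JAG1, NOTCH2, DLL1, HEY1, JAG2 and DLL3. LFNG had moved from rank 7 to rank 4 and NOTCH2 from rank 4 to rank 6. LFNG, JAG1 and NOTCH2 were at 9.29, 7.59 and 7.2 FPKM there, with overlapping intervals between neighbours.

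**Figure D2:**
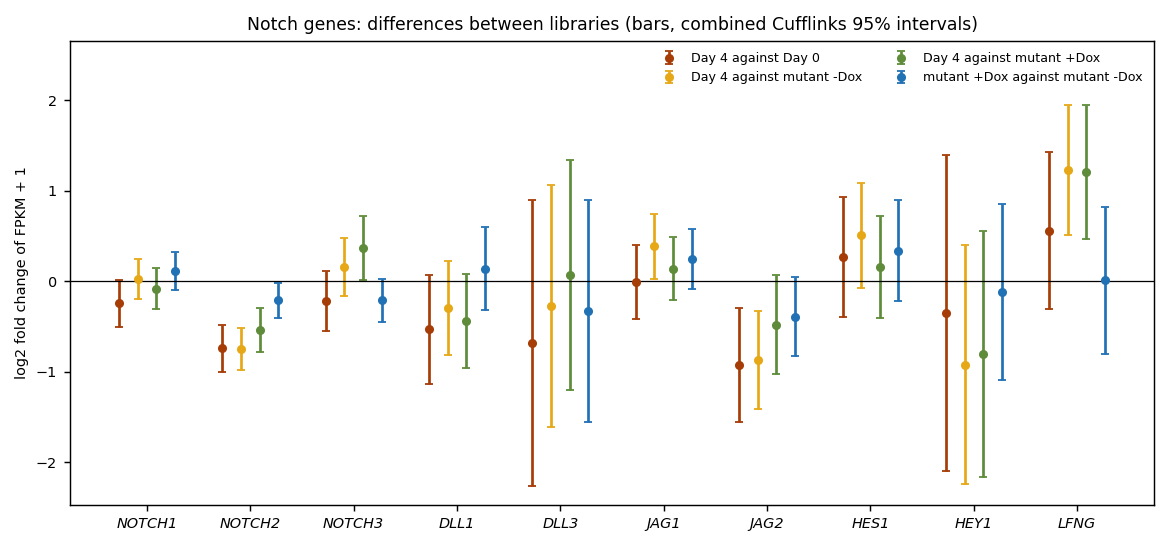
Difference in log2(FPKM + 1) (vertical axis) for each of the 10 Notch genes (horizontal axis) in 4 comparisons, marked by colour, with bars for the half-width combined from the Cufflinks intervals of both libraries. NOTCH2 lies below 0 in the 3 comparisons with Day 4, at -0.74, -0.75 and -0.54, and LFNG lies at 1.23 and 1.21 against the mutant line and at 0.01 within it.

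At Days 1 and 2 none of the 10 Notch genes passed the cutoffs against Day 0. Over all genes 3.48% rose and 3.27% fell at Day 1, and 3.9% rose and 4.24% fell at Day 2. At Day 3 DLL1 fell and 0 rose, beside 4.48% of genes that fell and 4.73% that rose. All of these comparisons share the Day 0 library.

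With the inactive enzyme, in the mutant line, 0 of the 10 Notch genes rose and 0 fell with Dox, and no intervals lay apart. Over all genes 1.24% rose and 1.53% fell, and intervals lay apart for 1.05% that were higher and 1.33% that were lower. The median log2 difference of the 10 was -0.05, with 5 higher and 5 lower. For the 6 above 4 FPKM it was 0.12, beside 0.0 over all genes above 4 FPKM. The untreated libraries of the 2 lines differed for more genes, with 2.78% higher and 7.0% lower in the mutant line by the cutoffs. None of the Notch genes passed these cutoffs, and the intervals lay apart for NOTCH3 alone (lower), beside 5.08% of genes higher and 5.14% lower with intervals apart.

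Markers of other cell types moved over the same days. The summed FPKM of 6 endoderm markers went from 0.255 at Day 0 to 248 at Day 4, all 6 rose, and 5 of them were at 0 at Day 0. It was 3.88 and 3.6 in the mutant line. Among 5 mesoderm markers the sum went from 7.32 to 65.0, through T and MIXL1 alone, with TBX6 and HAND1 at 0 at Day 4. The sum of 5 neuroectoderm markers was 2.22 and 6.2, nearly all of it PAX6, with NEUROG1 and NEUROG2 at 0 in both libraries. The sum of 4 endothelial markers was 13.8 and 5.87, nearly all of it KDR at Day 0, with PECAM1 at 0 in all libraries. The only listed entry of PECAM1 lies on a patch sequence outside the main chromosomes, so its 0 cannot be read as absence of its RNA. The sum of 7 hESC markers went from 2300 to 1620 in the JMJD3c-hESCs and from 2140 to 1850 in the mutant line, with 0 of the 7 at 0 in any library. The part of these changes in the values of the Notch genes was not tested.

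A list of 56 other genes of the pathway was set beside the 10. At Day 4 against Day 0, 0 of the 56 rose and 4 fell, beside the 5.88% and 7.56% of all genes. Those shares are over genes above 4 FPKM in either library, as were 39 of the 56. The 4 were HES3, HES4, HEY2 and NRARP, all in the group of 9 other targets. The word targets is only the name of this group. It holds further HES and HEY genes and NRARP, and whether Notch regulates each of them was not tested. Of the 9, 5 were above 4 FPKM in either library, and the median log2 difference of all 9 was -1.05. Over all 9 genes, low ones included, a median of this size was found against Day 0 alone. It was -0.09 at Day 4 against the untreated and -0.22 against the Dox-treated mutant line, and -0.36 between the untreated mutant line and Day 0. For the genes above 4 FPKM in either library the median at Day 4 against Day 0 was -1.32. It was -0.97 against the untreated and -0.91 against the Dox-treated mutant line, over 4 genes in each case. At Day 4 against Day 0 the medians of the other groups lay between -0.18 (4 genes of receptor glycosylation) and 0.09 (13 genes of receptor cleavage and ligand endocytosis, and 8 of the nuclear complex). Those also include the repressors of the complex (8 genes), receptor turnover (9 genes) and the other receptors and ligands (5 genes), and none of their genes passed the cutoffs in this comparison.

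**Figure D3:**
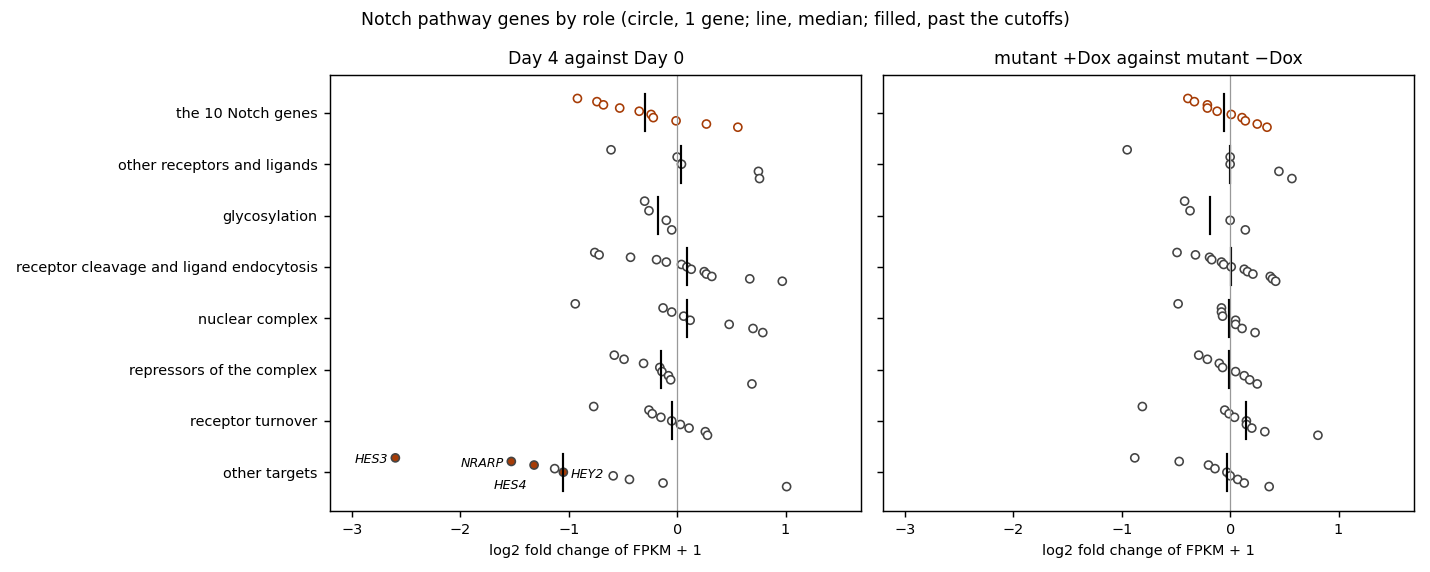
Difference in log2(FPKM + 1) (horizontal axis) of the 10 Notch genes and 56 other pathway genes, grouped by role (vertical axis), at Day 4 against Day 0 (left) and in the mutant line with against without Dox (right). Each circle is 1 gene, filled where it passed the cutoffs, and each black line is the median of a group. The other targets have their median at -1.05 on the left and at -0.03 on the right, where no circle is filled, and at -0.09 for Day 4 against the untreated mutant line, which is not plotted. For the 4 of them above 4 FPKM in that unplotted comparison the median was -0.97.

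Sequences upstream of 4 genes listed as targets are printed to set HES1, which did not fall, beside HEY2, HES3 and NRARP, which did. They are RefSeq sequences on GRCh38.p14, a later build than the hg19 of the deposited tables, and run 5′ to 3′ on the strand of the gene from 250 bases before the transcription start to 20 bases after it. Capitals mark TGGGAA, the core bound by RBPJ, or its reverse complement TTCCCA. The regions are chr3:194135898-194136167 (HES1, plus strand), chr6:125749382-125749651 (HEY2, plus strand), chr1:6243929-6244198 (HES3, plus strand) and chr9:137302252-137302521 (NRARP, minus strand).
HES1: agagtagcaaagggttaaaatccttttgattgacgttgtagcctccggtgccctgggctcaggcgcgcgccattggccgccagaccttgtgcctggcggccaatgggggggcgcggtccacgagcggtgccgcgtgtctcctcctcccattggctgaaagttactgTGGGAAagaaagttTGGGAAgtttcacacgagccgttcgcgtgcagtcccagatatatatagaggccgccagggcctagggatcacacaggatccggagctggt
HEY2: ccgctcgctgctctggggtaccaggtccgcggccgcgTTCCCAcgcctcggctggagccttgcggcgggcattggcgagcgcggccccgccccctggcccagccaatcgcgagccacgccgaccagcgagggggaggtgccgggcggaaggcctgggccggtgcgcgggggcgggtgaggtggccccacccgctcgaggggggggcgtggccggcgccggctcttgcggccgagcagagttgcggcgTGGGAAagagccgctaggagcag
HES3: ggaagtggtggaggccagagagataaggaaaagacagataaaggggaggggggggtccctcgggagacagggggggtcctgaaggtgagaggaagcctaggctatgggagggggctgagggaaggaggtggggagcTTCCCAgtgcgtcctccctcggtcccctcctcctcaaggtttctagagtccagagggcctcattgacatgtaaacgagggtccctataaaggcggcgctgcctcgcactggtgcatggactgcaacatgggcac
NRARP: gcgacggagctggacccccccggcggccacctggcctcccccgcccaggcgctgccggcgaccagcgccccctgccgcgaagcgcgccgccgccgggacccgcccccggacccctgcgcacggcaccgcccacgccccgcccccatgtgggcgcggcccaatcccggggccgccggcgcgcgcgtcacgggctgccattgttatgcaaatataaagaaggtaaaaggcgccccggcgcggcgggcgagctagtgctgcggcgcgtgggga

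The HES1 region holds the core at 2 places, whose first bases lie 84 and 70 bases before the start, both on the strand of the gene. The HEY2 region also holds it at 2 places, 213 bases before the start on the opposite strand and 3 bases before the start on the strand of the gene. HES3 has 1, on the opposite strand 114 bases before the start, and NRARP has none in these letters. In RefSeq windows of 300 bases (250 before to 50 after the start), 8439 of 35116 (24.0%) hold the core on either strand, and 3.8% hold it at 2 or more places. Of the 10 Notch genes, 7 were matched to such windows. The core was in that of HES1 and in both windows of LFNG, and not in those of NOTCH1, NOTCH2, NOTCH3, JAG1 and JAG2. HEY2, HES3, HES4 and NRARP, which fell, hold 2, 1, 1 and 0 copies in their windows, and HES1 holds 2. Of the other targets scanned that did not pass the cutoffs, HES6 holds 0 and HEYL, at most 1.67 FPKM in any library, holds 2. The part of these copies in the levels was not tested. A match of letters does not show binding.

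HES3 encodes a further repressor of the HES family. On Days 0 to 4 it measured 70.5, 46.3, 51.5, 35.3 and 10.8 FPKM. Mutant cells had 39.8 FPKM without Dox and 35.9 FPKM with Dox. It fell to 0.153 of Day 0 (log2 difference -2.60 ± 0.86), to 0.271 of the untreated and to 0.3 of the Dox-treated mutant line, all with intervals apart. About 63.8 reads stand behind the value at Day 0 and about 13.4 behind that at Day 4. The Day 0 value lay near the top of its interval of 39.5 to 75.8 FPKM. Day 4 was the lowest of the 7 libraries, and the level at Day 0 was the highest.

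NRARP encodes a small protein with ankyrin repeats that is induced by Notch and limits it. Its level was 27.9, 21.5, 19.8, 16.2 and 8.99 FPKM on Days 0 to 4, lower on each day than on the one before. The mutant line had 22.7 FPKM without Dox and 19.6 FPKM with Dox. It fell to 0.322 of Day 0 (log2 difference -1.53 ± 0.47), to 0.397 of the untreated and to 0.459 of the Dox-treated mutant line, all with intervals apart. A long non-coding RNA gene overlaps NRARP on the other strand.

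HEY2, the partner of HEY1 in the heart and arteries, measured 8.63, 8.18, 6.9, 5.54 and 3.64 FPKM on Days 0 to 4. Mutant cells had 6.52 FPKM without Dox and 6.9 FPKM with Dox. It fell to 0.421 of Day 0 (log2 difference -1.05 ± 0.69) with intervals apart. Against the untreated and the Dox-treated mutant line the ratios were 0.558 and 0.527, which did not pass the cutoff, and the intervals overlapped.

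HES4 measured 6.41, 9.03, 4.68, 4.12 and 1.96 FPKM on Days 0 to 4 and 1.63 and 0.895 FPKM in the mutant line without and with Dox. Its ratio of 0.306 at Day 4 against Day 0 passed the cutoff with overlapping intervals (log2 difference -1.32 ± 1.97). Against the untreated mutant line the ratio was 1.2, so the fall of HES4 was seen against Day 0 and not against that reference.

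RBPJ, the DNA-binding protein through which the cleaved receptors act, measured 53.0, 65.2, 55.8, 44.3 and 27.1 FPKM on Days 0 to 4. Untreated and Dox-treated mutant cells had 58.0 and 54.9 FPKM. Day 4 was the lowest of the 7 libraries. The ratio to Day 0 was 0.512 (log2 difference -0.94 ± 0.46) with intervals apart, just outside the cutoff. RBPJ fell to 0.468 of the untreated and to 0.494 of the Dox-treated mutant line, with intervals apart. RBPJ is poor in G and C (36.8%), and after the median of genes of like GC content was subtracted these ratios were 0.559 and 0.598, which do not pass the cutoff. The ratio to Day 0 was 0.5 after the same correction, at the cutoff but not past it. Against the Dox-treated mutant line RBPJ also did not pass with median-ratio or upper-quartile scaling.

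Against the untreated mutant line 3 of the 56 genes fell at Day 4 (RBPJ, HES3 and NRARP) and 1 rose, beside 3.9% and 7.04% of all genes. In this comparison 38 of the 56 were above 4 FPKM in either library. The gene that rose was TLE2, a corepressor of the Groucho family. It measured 10.3, 15.8, 13.1, 11.3 and 17.2 FPKM on Days 0 to 4 and 8.51 and 8.08 FPKM in the mutant line without and with Dox. Its ratio of 2.02 to the untreated mutant line had overlapping intervals and was 1.77 after the GC median was subtracted. Within the mutant line 38 of the 56 were above 4 FPKM in either library. There 0 of the 56 rose with Dox and 0 fell, beside 1.24% and 1.53% of all genes.

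**Figure D4:**
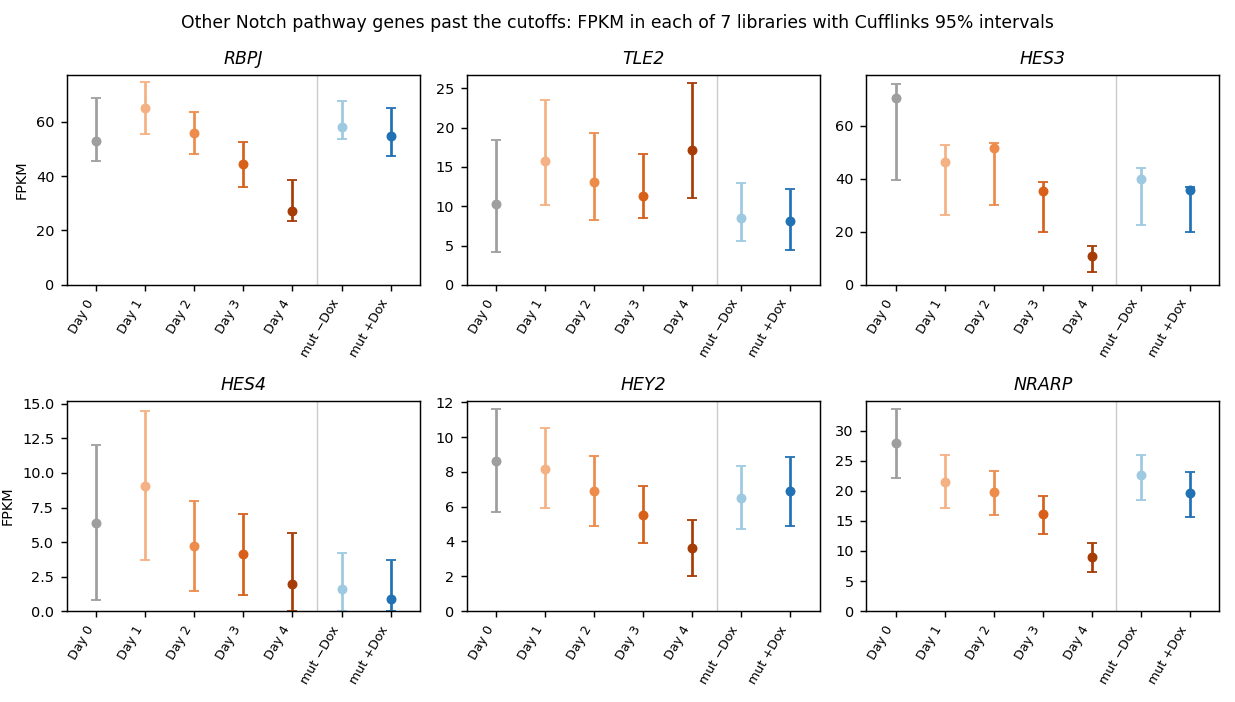
FPKM (vertical axis, starting at 0, with its own range for each gene) of the 6 other pathway genes that passed the cutoffs at Day 4 against Day 0 or against the untreated mutant line, in each of the 7 libraries (horizontal axis), with Cufflinks 95% intervals as bars. HES3, HEY2 and NRARP are at their lowest at Day 4 (10.8, 3.64 and 8.99 FPKM), as is RBPJ (27.1 FPKM), while HES4 is lowest in the mutant line with Dox (0.895 FPKM).

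The presomitic mesoderm is the tissue in which DLL1, DLL3 and LFNG act together. Of 8 genes of that tissue, 2 (MSGN1 and RIPPLY1) were at 0 in all 7 libraries. Apart from NRARP, the others (TBX6, MESP1, MESP2, RIPPLY2 and HES7) had values of at most 1.77 FPKM. TBX6 measured 1.56 FPKM on Day 0 and was at 0 on Day 4 and in the untreated mutant line. Of the 8, only NRARP was above 4 FPKM at Day 0 or Day 4, so no other gene of this list could pass the cutoffs. NRARP fell at Day 4 against Day 0, beside 7.56% of all genes above 4 FPKM in either library. The same fall is already counted above among the other targets.

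For the 2 Notch genes with the widest range, LFNG and DLL3, the 5 genes with the most similar pattern over the 7 libraries were sought among 10870 genes above 4 FPKM in at least 1 library. The measure was the root mean square difference of log2(FPKM + 1) after subtracting each gene's mean. The nearest to LFNG were GPN2 (0.123), MAP1LC3B2 (0.128), CUEDC1, DNAJC30 and TAGLN2 (each 0.131). GPN2 measured 21.0, 13.4, 21.4, 26.4 and 27.4 FPKM on Days 0 to 4 and 13.4 and 13.9 FPKM in the mutant line. It was thus lowest at Day 1 and in the mutant line and highest at Day 4, as was LFNG. The nearest to DLL3 were CLN3 (0.149), IL34 (0.154), SPPL3 (0.161), SPEG (0.166) and UIMC1 (0.167). The pattern of DLL3 rests on few reads, and so does its likeness to these genes.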

How the data were processed

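RNA-seq libraries of 7 samples were analysed, 1 per condition, grouped by their labels. Poly(A) RNA was made into directional libraries and read on a MiSeq as single reads of 150 bases. According to the methods and the submitters' processing notes, the authors used CASAVA 1.4, mapped the reads to hg19 with TopHat2 2.0.13 and calculated FPKM per gene with Cufflinks 2.1.1. The deposited tables give FPKM with the bounds of Cufflinks's 95% interval. The gene annotation is not given in the sources used here.

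The members and the gene lists were chosen with earlier results of these data known. Values were joined by gene identifier and locus, and PAICS, marked as failed in 1 library, was left out. One further pathway gene is not reported here. Of the other pathway and presomitic genes, those past the cutoffs at Day 4 against Day 0, against the untreated mutant line or in the mutant line were named, with genes at 0 in all libraries. The likeness of patterns was computed for the 2 Notch genes with the widest range. Background shares were taken over genes above 4 FPKM in either library and, for intervals, over genes above 0 in both libraries. Log2 differences used a pseudocount of 1, which understates changes of low genes. Their half-width is 2 times the combined standard error, taken for each library as its log2 interval divided by 4, and covers the estimate within a library only.

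Depth was estimated from 819 genes with 1 exon and 1 transcript in GENCODE release 44 on GRCh37 (the assembly of hg19), as the commonest lowest step of FPKM, with 200 bases subtracted from the transcript length. Reads implied by the Cufflinks intervals were 0.758 to 0.884 of this estimate, so that read numbers are approximate. Read numbers and GC content of genes used the longest transcript. Promoter windows came from RefSeq (GRCh38.p14). Alternatives changed the FPKM cutoff, the ratio, the pseudocount, the scaling, the GC correction (20 bins), the use of intervals, the entries that share a name, the treated library and the reference. Scripts were written in Python 3.11.15 (numpy 2.4.6, pandas 2.3.3, and matplotlib 3.10.9 for figures). The calling of changes was tested on simulated data with large changes of well expressed genes only. Smaller changes, and changes of genes at lower levels, were not simulated. No test was made, since no condition had a replicate.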

Additional observations from a re-analysis of the deposited data

Results flagged for a closer look

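For 5 of the Notch genes and the other pathway genes named in the report the difference at Day 4 against Day 0 in the JMJD3c-hESCs and that with against without Dox in the mutant line had opposite signs. With 1 library per condition the difference between the lines was not tested. Among the Notch genes these were NOTCH1 (-0.24 and 0.11 in log2, a gap of -0.35), DLL1 (-0.53 and 0.14, a gap of -0.67) and JAG1 (-0.01 and 0.25, a gap of -0.26). The intervals of these genes overlapped in both lines. The sign of JAG1 at Day 4 depended on the scaling, with 0.04 under median-ratio and 0.1 under upper-quartile scaling. Among the other pathway genes they were HEY2 (-1.05 and 0.07, a gap of -1.13) and TLE2 (0.69 and -0.07, a gap of 0.76).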

How the results depend on the processing

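No paired analysis was possible because each condition has 1 library, which also limits what can be said to these libraries, and Day 0, the reference of the time course, is the shallowest. Of 120 recomputed log2 differences of single Notch genes, 111 kept their sign and 3 moved by more than their combined interval. A changed pseudocount cannot change a sign, so part of the 111 was fixed in advance. A reversal could be counted only where intervals lay apart, for NOTCH2 and JAG2 at Day 4 against Day 0, and 0 were found. The 3 that moved were NOTCH1 (0.03) and NOTCH3 (0.16) against the untreated mutant line and NOTCH2 at Day 3 (-0.40). The median of the 10 at Day 4 against Day 0 lay between -0.39 (pseudocount of 0.1) and -0.07 (Day 3 as treated), and in the mutant line between -0.07 and 0.12 (Notch genes above 4 FPKM only).

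At Day 4 against Day 0, a cutoff of 1 FPKM gave 2 Notch genes that fell (DLL3 and JAG2), beside 10.7% of all genes. A ratio of 1.5 gave 1 that rose (LFNG) and 2 that fell (NOTCH2 and DLL1), beside 12.9% and 17.8%. The untreated mutant line as the reference gave 1 that rose, and Day 3 gave 1 that fell. Against the untreated mutant line 2 fell at 1 FPKM (JAG2 and HEY1) and 1 at a ratio of 1.5 (NOTCH2), beside 6.47% and 13.3% of all genes. Against the Dox-treated mutant line 1 fell at each setting (HEY1 and NOTCH2), beside 5.27% and 12.1%. LFNG rose against the mutant line under all alternatives of the cutoff, ratio, scaling, GC and intervals. Of the 56 other pathway genes at Day 4 against Day 0, 3 rose and 6 fell at 1 FPKM, beside 9.24% and 10.7% of all genes, and 3 rose and 8 fell at a ratio of 1.5, beside 12.9% and 17.8%. With the untreated mutant line as the reference 1 rose and 3 fell, and at Day 3 0 rose and 1 fell. These alternatives for the 56 genes and for Day 4 against the mutant line were chosen after seeing the data. Of all 78 recomputed counts 64 stayed within 1.5 times. Requiring intervals apart removed HES4, and GC correction kept the fall of HES3, HES4, HEY2 and NRARP at Day 4 against Day 0. The upper-quartile scaling moved the median of all genes at Day 4 against Day 0 from -0.06 to 0.06.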
